A study of Mus musculus with 6 samples.

Results

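The genes described here are 9 genes of vitamin A (retinoid) handling, Rbp4, Lrat, Dhrs3, Rdh11, Rdh16, Aldh1a1, Aldh1a7, Cyp26a1 and Cyp26b1, taken by symbol from the 21528 genes with a value above 0 in at least 1 library. They were followed in liver RNA-Seq libraries from mice of 5 months, C57BL/6 by the labels and on a C57BL/6J background by the study's methods, fed for 3 months on a high-fat diet in which fat gave 60% of the calories. Of the libraries, 3 came from wild-type (WT) mice and 3 from homozygous TRIM24 C52/55A knockin (KI) littermates, in which CRISPR/Cas9 editing of the endogenous gene replaced 2 cysteines, Cys52 and Cys55, of the RING domain by alanine so that the E3 ligase function of TRIM24 is lost in every cell of the body. All 6 mice shared the strain, the diet and the age, and no chow-fed group was compared here, so the values describe the genotype on this diet only. The labels number the libraries 1 to 3 within a genotype without naming mice, and the p-values measure the spread between these libraries.

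Vitamin A reaches most tissues as retinol bound to the carrier RBP4, which hepatocytes secrete, and the liver keeps the body's largest store as retinyl esters in its stellate cells. Retinol is oxidised to retinal and then to retinoic acid, the form that binds the nuclear receptors RAR and RXR, and enzymes of the CYP26 family clear retinoic acid by hydroxylation. Several of these genes, Cyp26a1, Dhrs3 and Lrat among them, are themselves induced by retinoic acid, and TRIM24 is known as a coregulator that binds retinoic acid receptors.

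Among the 9 genes, 2 fell in KI liver and none rose. Rdh16, a retinol dehydrogenase, fell from 71.9 ± 3.12 to 27.2 ± 11.1 FPKM (fragments scaled by transcript length and library depth, mean ± SD, n = 3 libraries per genotype), and Aldh1a7, a rodent copy of the retinal dehydrogenase gene Aldh1a1, fell from 120.0 ± 6.64 to 83.8 ± 15.3 FPKM. The other 7 did not pass the test, and the widest intervals among them belonged to the retinoic acid hydroxylases, Cyp26a1, with means of 3.65 in WT and 1.40 FPKM in KI, and Cyp26b1, with 2.60 and 6.48 FPKM. Genes were compared with limma on log2(FPKM + 1) and called at a Benjamini-Hochberg adjusted p under 0.05 over the 12225 genes that averaged 0.5 FPKM or more, so every log2 fold change below, KI minus WT, is on that scale and understates changes of low genes. The call rate over all genes was 7.72% in either direction, 6.09% lower and 1.64% higher, beside 22.2% (2 of 9) of the retinoid genes. The 2 retinoid calls became 0 to 4 when 1 library was left out. In 3 of the 9 every KI library lay below every WT library and in 1 above, against 22.5% and 6.31% of all genes tested. At an unadjusted limma p under 0.05 there were 8 of the 9 (6 lower, Cyp26b1 and Lrat higher, and only Dhrs3 not), against 23.6% of all genes. The 9 genes and all lists below were chosen with earlier results of these data known, so such shares describe them and are not a test. The median log2 fold change of the 9 was −0.53, and that of all genes tested was −0.08.

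**Figure D1:**
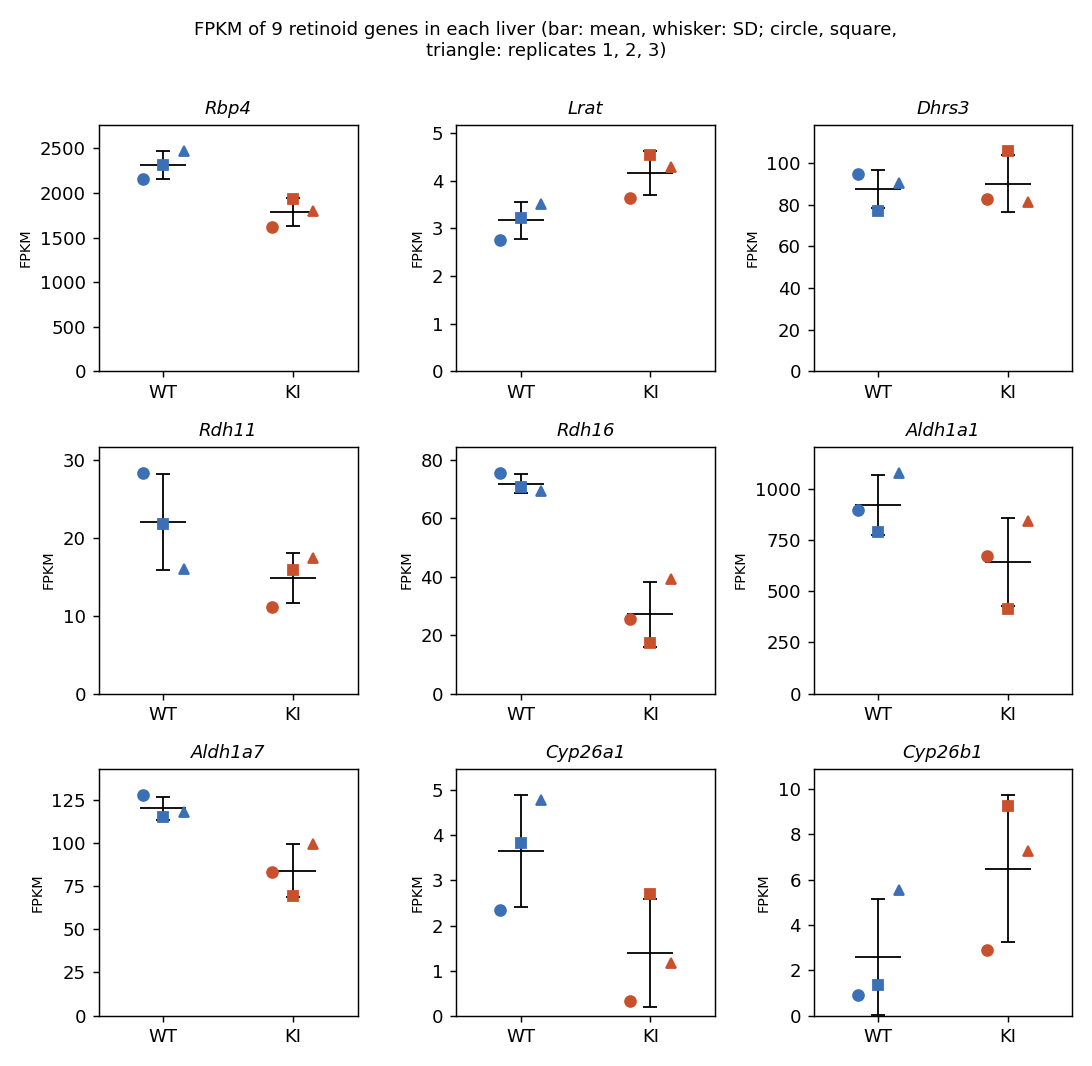
FPKM of the 9 retinoid genes (y axes, linear and starting at 0) in WT and KI livers (x axes); circles, squares and triangles are replicates 1, 2 and 3, horizontal bars are means and whiskers are SD. KI points lie below all WT points for Rbp4, Rdh16 and Aldh1a7 and above them for Lrat, and overlap with WT for the other 5 genes.

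The levels of the 9 genes covered a wide range, from a carrier among the most abundant liver transcripts to enzymes of a few FPKM. Because FPKM is scaled by transcript length, genes can be ranked by it, here by mean over all libraries among the 21528 genes with values. Rbp4 was the 57th, Aldh1a1 the 109th, Aldh1a7 the 716th, Dhrs3 the 800th, Rdh16 the 1300th and Rdh11 the 2860th gene. Cyp26b1, Lrat and Cyp26a1 came at ranks 6865, 7506 and 8567. The hepatocyte gene Alb has no value here, so the ranks are not those of all liver genes. The order differed between genotypes, since the WT means of Cyp26a1, Lrat and Cyp26b1 were 3.65, 3.16 and 2.60 FPKM and the KI means 1.40, 4.15 and 6.48 FPKM, and in KI liver Dhrs3 (89.9 FPKM) stood above Aldh1a7 (83.8 FPKM). Neighbours were not all separate, since the ranges of Cyp26b1, Lrat and Cyp26a1 overlapped in WT liver and those of Aldh1a7 and Dhrs3 overlapped in KI liver.

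Transport and storage were compared first. Rbp4 encodes the plasma retinol carrier and lies at chr19:38116629-38125281 on the minus strand (GRCm38, 6 exons). WT liver held 2152, 2310 and 2468 FPKM of it and KI liver 1620, 1932 and 1795 FPKM, so each KI library was below each WT library. The log2 fold change was −0.38 (SE 0.10, 95% interval −0.60 to −0.15), with a limma adjusted p of 0.0535 that just missed the threshold and an exact permutation p of 0.1, the smallest that 3 against 3 libraries allow. Without KI replicate 2, the highest KI library, the limma adjusted p was 0.0406, and without any other library it was 0.0882 to 0.184. The log2 fold change was −0.68 under quantile normalization (limma adjusted p = 0.0242) and −0.27 under median-of-ratios scaling (0.12).

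Lrat encodes the acyltransferase that esterifies retinol for storage, and in liver it is known as a stellate cell gene. Its libraries read 2.76, 3.22 and 3.51 FPKM in WT and 3.63, 4.53 and 4.29 FPKM in KI, with every KI library above every WT library although the highest WT and the lowest KI library were close. The log2 fold change was 0.31 (SE 0.12, 95% interval 0.04 to 0.57) and the limma adjusted p was 0.151. The deposited interval of Lrat spans 138 kb and is the same as that of Fgg, a highly expressed fibrinogen gene, while the GENCODE annotation of Lrat covers 11.4 kb (chr3:82892579-82903973, minus strand, 2 exons). Fgg had means of 1547 ± 141 FPKM in WT and 1873 ± 176 FPKM in KI (SD, n = 3), also with every KI library above every WT library (log2 fold change 0.28, limma adjusted p = 0.158), and its part in the Lrat values was not tested.

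Markers of stellate cells were read beside Lrat. The summed level of 12 stellate cell genes ran from 236.5 to 249.6 FPKM in WT and from 228.0 to 290.9 FPKM in KI, and none of the 12 was called (limma), beside 7.72% of all genes. At an unadjusted limma p under 0.05 there were 3 of 12, beside 23.6% of all genes, and these had lower values in KI, Pdgfrb, Col1a1 and Col3a1, with log2 fold changes of −0.27, −0.62 and −0.58, the latter pair overlapping between groups. Over the list 6 log2 fold changes were above 0 and 6 below, with a median of −0.01, and every KI library exceeded every WT library for Reln (0.24) and Hgf (0.21). In libraries of whole liver, fewer cells of a type and less RNA per cell cannot be told apart.

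Retinol and retinal are interconverted by short-chain dehydrogenases, of which Dhrs3 and Rdh11 mainly reduce retinal and Rdh16 oxidises retinol. Dhrs3 (chr4:144892827-144928209, plus strand, 6 exons) measured 94.7, 77.1 and 90.2 FPKM in WT and 82.8, 105.6 and 81.4 FPKM in KI. The groups overlapped, the log2 fold change was 0.04 (95% interval −0.24 to 0.32, limma adjusted p = 0.895) and it became −0.03 after rescaling to TPM (the same FPKM scaled to an equal sum in every library), −0.05 without WT replicate 2 and −0.08 without KI replicate 2.

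Rdh11 (chr12:79174337-79192293, minus strand, 7 exons) had 28.3, 21.8 and 16 FPKM in WT and 11.2, 15.9 and 17.4 FPKM in KI. WT replicate 3 lay within the KI range, and the difference did not pass the test (log2 fold change −0.53, SE 0.22, 95% interval −1.02 to −0.03, limma adjusted p = 0.184, and −0.34 and −0.35 without WT replicate 1 and KI replicate 1).

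Rdh16 (chr10:127801152-127846565, plus strand, 4 exons) was the more strongly changed of the called genes. Its WT libraries were tightly grouped at 75.4, 70.8 and 69.4 FPKM, and its KI libraries read 25.3, 17.1 and 39.1 FPKM. The groups were separate, with KI replicate 3 nearest to WT. Mean FPKM was 2.64-fold lower in KI (log2 fold change −1.44, SE 0.24, 95% interval −2.00 to −0.89, limma adjusted p = 0.0132). The adjusted p stayed under 0.05 in 11 of 15 alternatives and ran from 0.0521 to 0.0590 without WT replicate 1, WT replicate 3 or KI replicate 1, fits that leave 1 group with fewer libraries, and was 0.0614 without a filter on low genes. Without KI replicate 2 the log2 fold change was −1.16 (limma adjusted p = 0.0111).

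Rdh16 belongs to a cluster of close copies on chromosome 10, and reads that match several copies could be split between them in the counting. Its deposited interval is also that of a pseudogene, Rdh18-ps. Its 951 coding bases are 96.3% identical to those of Rdh9, with an identical run of 229 bases, 94.1% to Rdh19, 93.1% to Rdh1 and 86.1% to Rdh7. Rdh9 itself fell from 40.5 ± 8.10 to 16.2 ± 2.03 FPKM (log2 fold change −1.26, limma adjusted p = 0.00315). The sum of Rdh16 and Rdh9, read because reads may be shared between that pair, was 112.4, 105.4 and 119.1 FPKM in WT and 41.0, 31.6 and 57.6 FPKM in KI, again with no overlap (exact permutation p = 0.1). Rdh7, another retinol dehydrogenase gene of the cluster, had 726.1 ± 34.7 FPKM in WT and 685.0 ± 32.3 FPKM in KI (log2 fold change −0.08, limma adjusted p = 0.573).

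Retinal is oxidised to retinoic acid by aldehyde dehydrogenases of the 1A family, and Aldh1a1 is the member best known from liver. Aldh1a1 (chr19:20492715-20643465, plus strand, 13 exons in its first annotated transcript) read 899.0, 790.7 and 1078 FPKM in WT and 672.0, 414.1 and 842.8 FPKM in KI. KI replicate 3 lay above WT replicate 2, and the difference was not called (log2 fold change −0.57, SE 0.24, 95% interval −1.12 to −0.02, limma adjusted p = 0.198). Without KI replicate 2, the lowest library, the log2 fold change was −0.28 (limma adjusted p = 0.278).

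Aldh1a7 (chr19:20692953-20727562, minus strand, 13 exons) had 127.5, 114.8 and 117.7 FPKM in WT and 82.9, 69.0 and 99.6 FPKM in KI, with all KI libraries below all WT libraries. It fell by 0.53 on the log2 scale (SE 0.13, 95% interval −0.82 to −0.23, limma adjusted p = 0.0439). This call lay near the threshold and held in 6 of 15 alternatives, with adjusted p up to 0.150, and it was lost without any one of WT replicates 1 to 3 (adjusted p 0.0945 to 0.141) or KI replicate 1 (0.132).

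The coding sequences of Aldh1a1 and Aldh1a7, 1503 bases each, are 91.6% identical with a longest identical run of 100 bases, so their reads may also have been shared. Their summed level was 1026, 905.5 and 1196 FPKM in WT and 754.9, 483.2 and 942.4 FPKM in KI, which overlapped (exact permutation p = 0.2), and the difference of means, −315.7 FPKM, was −193.9 FPKM without KI replicate 2. Aldh1a7 made up 11.7% ± 1.57 of the sum in WT and 11.9% ± 2.04 in KI (SD, n = 3, exact permutation p = 0.9), so the share of the copy differed by less than its spread between libraries.

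**Figure D2:**
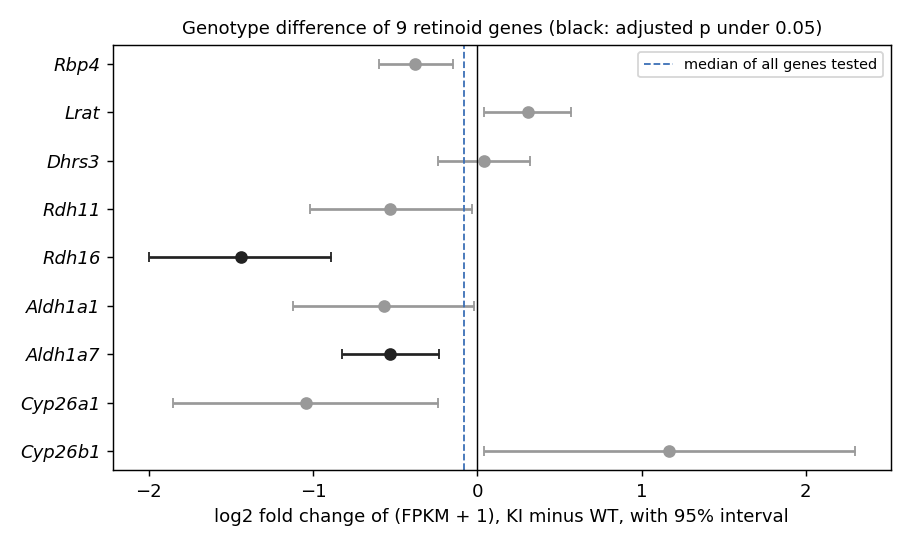
Fitted log2 fold change of (FPKM + 1), KI minus WT (x axis), of the 9 genes (y axis, in order of their roles) with 95% intervals; black points are called and a dashed line marks the median of all genes tested, −0.08. Rdh16 at −1.44 and Aldh1a7 at −0.53 are the called genes, and the intervals of Cyp26a1 and Cyp26b1 are the widest.

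Retinoic acid is removed by CYP26A1 and CYP26B1. Retinoic acid receptors bind DNA as dimers with RXR at direct repeats of a half-site, and the sequences before the starts of both genes are shown because the promoter of Cyp26a1 holds such a repeat and that of Cyp26b1 does not. They are taken from the RefSeq promoter table (GRCm38.p6), cut so that no annotated transcript is included, and run 5′ to 3′ on the gene's strand, from chr19:37697558-37697797 (plus strand) for Cyp26a1 and chr6:84593909-84594060 (minus strand) for Cyp26b1. Capitals mark the repeat.
Cyp26a1: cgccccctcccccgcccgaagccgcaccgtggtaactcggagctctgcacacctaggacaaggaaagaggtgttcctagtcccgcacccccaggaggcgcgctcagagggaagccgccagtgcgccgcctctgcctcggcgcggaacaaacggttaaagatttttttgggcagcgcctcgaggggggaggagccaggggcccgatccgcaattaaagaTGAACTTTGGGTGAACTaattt
Cyp26b1: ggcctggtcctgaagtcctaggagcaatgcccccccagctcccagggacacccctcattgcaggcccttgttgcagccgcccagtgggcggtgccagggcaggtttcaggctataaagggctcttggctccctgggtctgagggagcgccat
The capitals read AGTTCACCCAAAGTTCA on the opposite strand, which is AGTTCA given in the same direction on both sides of a 5-base spacer (DR5), at chr19:37697776-37697792, between bases 32 and 16 before the RefSeq start. The search covered 300 bases around each start (250 before, 50 after) for the half-site AGGTCA and its variants AGTTCA with T, then GGGTCA with G, and GGTTCA with both, repeated with spacers of 1, 2 or 5 bases on either strand. All 9 genes matched the table, with 14 promoters, and the Cyp26a1 repeat was the only match in them. Of all 32851 promoters in the table, 0.0974% held a repeat with spacer 5, 0.268% with spacer 2 and 0.222% with spacer 1, whereas 43.7% held at least a single half-site. A match of letters is not evidence of binding, and no match says only that these letters are not in the window.

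Cyp26a1 (chr19:37697798-37701536, plus strand, 7 exons) is the hydroxylase gene best known for its induction by retinoic acid in liver. It read 2.34, 3.84 and 4.78 FPKM in WT and 0.333, 2.70 and 1.16 FPKM in KI. KI replicates 1 and 3 were below all WT libraries and KI replicate 2 was above WT replicate 1, so the groups overlapped and the KI libraries themselves differed 8.12-fold.

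The KI mean of Cyp26a1 was 2.61-fold lower, with a log2 fold change of −1.04 (SE 0.35, 95% interval −1.85 to −0.24) and a limma adjusted p of 0.116. Without KI replicate 2 the log2 fold change was −1.42 (limma adjusted p = 0.0266), without KI replicate 1 it was −0.68 (0.29), and with a pseudocount of 0.1 in place of 1 it was −1.65 (0.143). These levels rest on few reads. As a rough count, a single fragment was taken as the median FPKM times kilobases of single-transcript genes within a preset low range. By that measure the values stood for about 67, 113 and 136 fragments in WT and about 9, 77 and 31 in KI. Read totals are not known, so these counts are approximate.

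Cyp26b1 (chr6:84571414-84593908, minus strand, 7 exons) read 0.898, 1.33 and 5.55 FPKM in WT and 2.91, 9.24 and 7.27 FPKM in KI. WT replicate 3 lay above KI replicate 1, and the WT libraries alone differed 6.18-fold. The mean was 2.495-fold higher in KI, but the difference did not pass the test (log2 fold change 1.17, SE 0.49, 95% interval 0.04 to 2.30, limma adjusted p = 0.198, and log2 fold changes of 0.82 to 1.72 with adjusted p of 0.0659 to 0.439 over 15 alternatives).

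Set against each other within a library, where scaling cancels, the balance of the pair separated the genotypes. In WT replicates 1 and 2 Cyp26a1 was the higher of both, with log2 ratios of Cyp26b1 to Cyp26a1 of −1.38 and −1.52, and in WT replicate 3 the ratio was 0.215. In KI liver Cyp26b1 was higher in each library, with log2 ratios of 3.13, 1.78 and 2.65. The mean log2 ratio was −0.90 ± 0.97 in WT and 2.52 ± 0.69 in KI (SD, n = 3), a difference of 3.41. The exact permutation p was 0.1, the smallest possible here. The difference ran from 3.10 to 3.97 over 10 alternatives, of which TPM and median-of-ratios scaling cannot move it. The ratio of KI replicate 1 rests on a Cyp26a1 value of 0.333 FPKM.

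The summed level of both hydroxylase genes gave no such separation. It was 3.24, 5.17 and 10.3 FPKM in WT and 3.25, 11.9 and 8.43 FPKM in KI (exact permutation p = 0.7), and the difference of means, 1.62 FPKM, turned to −0.41 FPKM without KI replicate 2. The coding sequences of the pair are 62.2% identical with no identical run over 20 bases. Cyp26c1, the remaining member of the family, was under the filter and not tested.

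**Figure D3:**
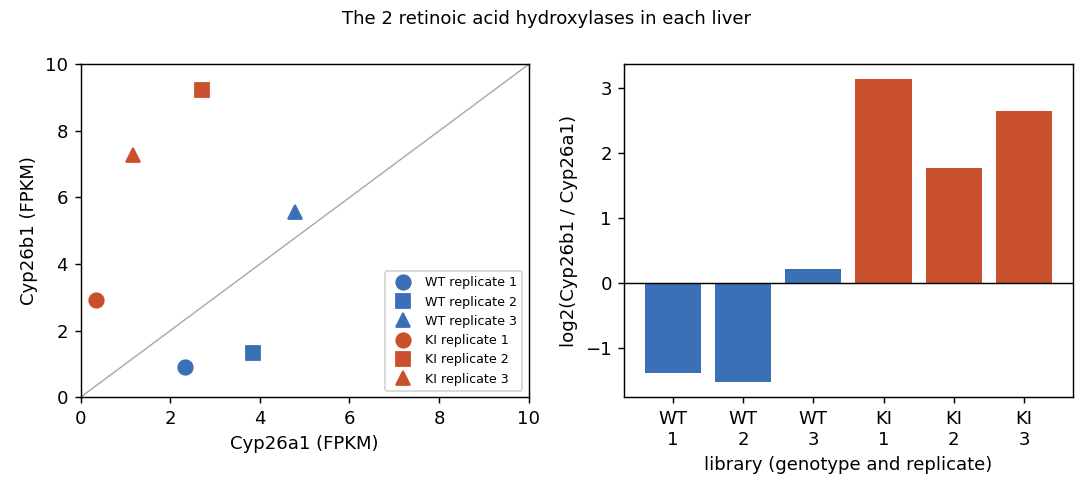
Left, Cyp26b1 against Cyp26a1 in FPKM for each library, with a grey line where both are equal; right, log2 of Cyp26b1 over Cyp26a1 in each library. The 3 KI libraries lie above the line at log2 ratios of 1.78 to 3.13, and the WT libraries lie between −1.52 and 0.215.

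Genes whose centred profile over the 6 libraries was closest to each hydroxylase gene were named as a description, with the root mean square difference of log2(FPKM + 1) as the measure. Nearest to Cyp26a1 were Eepd1 (0.286), the antigen-presentation chaperone gene Cd74 (0.304) and the cytoplasmic actin gene Actg1 (0.304), with log2 fold changes of −0.90, −0.94 and −0.78. Nearest to Cyp26b1 were Gm14403 (0.455), the imprinted long non-coding RNA gene Meg3 (0.507) and Xlr3a (0.553), with log2 fold changes of 0.71, 1.11 and 0.46. These genes were chosen for their likeness over the same libraries, so their differences between genotypes are in part set by the choice and carry no test.

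The rest of the pathway was read from lists covering carriers, storage, carotenoid uptake, dehydrogenases, hydroxylases, receptors and targets, together with the TIF1 family to which TRIM24 belongs. Apart from the 9 genes, 43 listed genes could be tested, of which 2 rose and 3 fell (11.6% called, beside 7.72% of all genes), with a median log2 fold change of −0.09. The calls lay among the dehydrogenases, in which 2 of 21 tested genes rose and 4 fell, Rdh16 and Aldh1a7 included, and in the carotenoid list, where 1 of 4 fell.

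The genes of the dehydrogenase list that rose were Aox3 and Hsd17b6, while 15 of the 21 were not called. Aox3, a hepatic aldehyde oxidase gene, read 90.8, 123.8 and 102.9 FPKM in WT and 275.6, 188.4 and 229.6 FPKM in KI (log2 fold change 1.11, SE 0.16, limma adjusted p = 0.00672). Hsd17b6, a hydroxysteroid dehydrogenase gene related to the retinol dehydrogenases, had 44.9, 61.2 and 60.9 FPKM in WT and 83.8, 80.1 and 110.3 FPKM in KI (log2 fold change 0.70, limma adjusted p = 0.0329). All KI libraries exceeded all WT libraries for both genes. Hsd17b6 was not called without WT replicate 1, 2 or 3 or without KI replicate 1 or 3 (limma adjusted p 0.0595 to 0.0916), nor without a filter (0.0983).

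Besides Rdh9, Dhrs7 fell from 30.5 ± 3.90 to 18.3 ± 3.21 FPKM (log2 fold change −0.71, limma adjusted p = 0.0223). The limma adjusted p of Dhrs7 was 0.0739 to 0.0914 without WT replicate 1, WT replicate 3 or KI replicate 1. It was 0.0727 without a filter on low genes and 0.0556 with a replicate block. Cd36, which encodes a fatty acid translocase that also takes up carotenoids, fell in every KI library, from 63.4, 52.7 and 69.5 FPKM to 17.4, 18.9 and 21.0 FPKM (log2 fold change −1.64, SE 0.12, limma adjusted p = 0.000333). The calls of Cd36, Rdh9 and Aox3 held in 15 of 15 alternatives.

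Against 7.72% of all genes, a share at which a list of this size holds few calls or none, no gene was called among the carriers (0 of 4), the ester storage genes (0 of 8), the receptors (0 of 6) or the retinoic acid targets (0 of 10), whose median log2 fold changes were −0.04, 0.00, −0.09 and 0.02. At an unadjusted limma p under 0.05 there were 1, 2, 1 and 4 genes, the 9 genes included, beside 23.6% of all genes. In the TIF1 family none of 3 was called and none had an unadjusted limma p under 0.05. Of the receptors, Rxrg was at 2.53 ± 0.142 FPKM in WT and 1.51 ± 0.532 FPKM in KI with no overlap (log2 fold change −0.51, limma adjusted p = 0.0934). Trim24 itself read 5.54, 4.85 and 5.96 FPKM in WT and 6.15, 4.31 and 8.46 FPKM in KI (log2 fold change 0.14, limma adjusted p = 0.713). The knockin exchanges codons, so this level does not check the genotype.

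**Figure D4:**
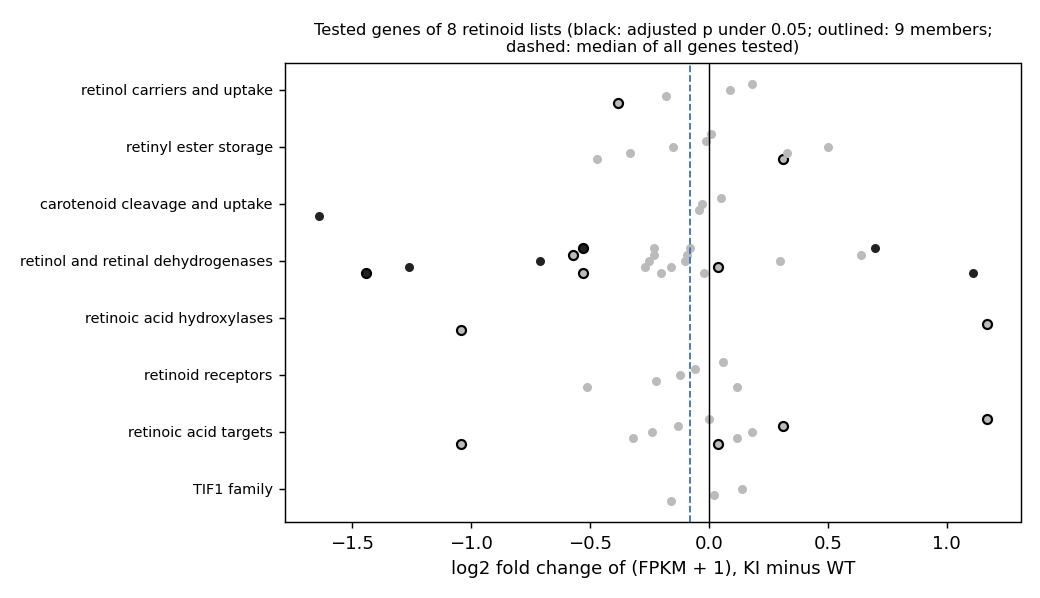
Log2 fold change of (FPKM + 1), KI minus WT (x axis), of every tested gene in the retinoid pathway lists (rows); black points are called, the 9 genes are outlined and the dashed line marks the median of all genes, −0.08. Called genes lie in the dehydrogenase and the carotenoid lists, and none lies in the receptor or target lists.

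Markers of liver zones and cell types were set beside these results. Cyp26a1 and Aldh1a1 are known to be enriched in hepatocytes around the central vein, and the 9 pericentral genes summed to 4063 to 5282 FPKM in WT and 2661 to 3168 FPKM in KI, with 5 of 9 lower by test, Glul, Oat, Cyp2e1, Slc1a2 and Rhbg, beside 6.09% of all genes. Of the others, Cyp1a2 read 102.9 ± 24.8 FPKM in WT and 128.7 ± 5.87 FPKM in KI, with every KI library above every WT library (log2 fold change 0.35, limma adjusted p = 0.253), and Axin2 was at 0.10 (0.694). Without Cyp2e1, the most abundant, the sums were 1030 to 1355 and 516.2 to 623.9 FPKM. Glul, the pericentral glutamine synthetase gene, fell from 587.9 ± 26.7 to 281.9 ± 7.68 FPKM (limma adjusted p = 0.000288). The part of this difference in the values of the retinoid genes was not tested.

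Periportal genes summed to 2042 to 2131 FPKM in WT and 1817 to 2667 FPKM in KI, and the 5 hepatocyte genes summed to 16074 to 16263 and 15953 to 18681 FPKM, in each case with overlap. Log2 fold changes were below 0 for 4 of 6 periportal genes, with a median of −0.16. Without Pck1, the most abundant, the periportal sums were 1167 to 1241 FPKM in WT and 1331 to 1522 FPKM in KI, and Cyp2f2 carried this separation. Cyp2f2 rose from 538.0 ± 34.0 to 851.3 ± 66.3 FPKM (limma adjusted p = 0.00623) and Hsd17b13 fell from 360.3 ± 33.4 to 265.6 ± 24.7 FPKM (0.0348), and in the hepatocyte list Cps1 rose from 320.9 ± 37.0 to 497.9 ± 78.0 FPKM (0.0281).

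Sinusoidal endothelial genes overlapped in sum, with 4 of 5 log2 fold changes below 0 and a median of −0.05, and Lyve1 was the called gene of that list, which fell from 6.21 ± 1.89 to 2.07 ± 0.973 FPKM (limma adjusted p = 0.0281). Kupffer cell and cholangiocyte genes also overlapped in sum, and 0 of 5 and 0 of 4 tested genes were called, beside 7.72% of all genes. Log2 fold changes were below 0 for 5 and 3 of them, with medians of −0.24 and −0.29. At an unadjusted limma p under 0.05 there were 1 Kupffer cell gene, lower, and 3 cholangiocyte genes, 2 lower and 1 higher, beside 23.6% of all genes. KI replicate 2 stood apart in some adipocyte genes. Car3, which liver also expresses, was left out of the sums of this list. They were 7.37 to 11.4 FPKM in WT, 8.05 FPKM in the lowest KI library and 29.3 FPKM in KI replicate 2. Adipoq, Plin1 and Lep read 4.55, 3.32 and 3.98 FPKM in that library and at most 0.127 FPKM in any other, while Adrb3 was higher in all KI libraries and was the gene of the list that was called (limma adjusted p = 0.000716). Adrb3 read 7.81, 12.4 and 10.6 FPKM in KI, so it made up part of every KI sum. Cfd went the other way, with 2.54 FPKM in KI replicate 2 and 4.165, 8.62 and 3.10 FPKM in WT (log2 fold change −1.61). Cidea also had a negative log2 fold change, −0.99, with 0.889 FPKM in KI replicate 2 and 0.590 to 2.98 FPKM in WT. Car3 was lowest in KI replicate 2, at 1436 FPKM. Of the 8 adipocyte genes 5 were highest in KI replicate 2. This library also had the highest Cyp26a1, Cyp26b1, Rbp4, Lrat and Dhrs3 and the lowest Rdh16, Aldh1a1 and Aldh1a7 of the KI group. A link between the adipocyte genes and these values was not tested.

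**Figure D5:**
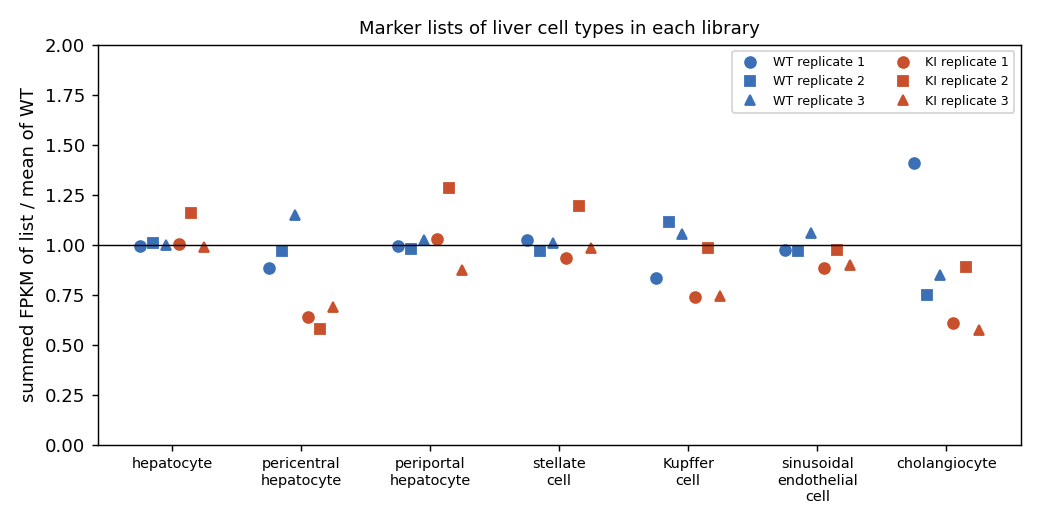
Summed FPKM of each marker list divided by its WT mean (y axis, linear) in each library, by list (x axis). The pericentral list is lower in all KI libraries, with a KI to WT ratio of means of 0.635, and the full sums of the other lists overlap between genotypes.

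The 6 libraries were similar in breadth, with 17709 to 17984 genes above 0, and no pair was identical. The FPKM of a library summed to 644619 to 648221 in WT and 673244 to 676791 in KI, with no overlap, a difference that TPM scaling removes. FPKM tables keep no read totals, so depth was known only relative to WT replicate 1, at 0.963 to 1.03 times. Of the 944 genes called over the whole table, 21.2% were higher in KI, a share that became 12.7% as TPM, 37.7% under median-of-ratios scaling and 40.3% under quantile normalization.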

How the data were processed

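Liver RNA from 3 WT and 3 KI mice was sequenced by the authors, who deposited 1 table of FPKM values per library with gene symbol and interval. The submitters' processing notes name bcl2fastq, Salmon 0.14.0, DESeq2 1.30.0 and GRCm38; the step that produced FPKM and the annotation are not given in the sources used here. Values were joined by gene identifier, and log2(FPKM + 1) of genes averaging 0.5 FPKM or more was compared with limma 3.58.1 (lmFit, eBayes with trend) in R 4.3.3, with Benjamini-Hochberg adjustment. Exact two-sided permutation tests used FPKM. Scripts were tested on simulated data. Depth limits low genes, and reads from stretches identical in close copies could be assigned to either. The 9 genes and all lists were chosen with earlier results of these data known. Named are the 9 genes, called genes of the pathway lists (at most 8 per list), Trim24 and the 3 nearest profiles of each Cyp26 gene. Rxrg, Rdh7, Fgg and the marker genes given with values were named after their values were seen. Alternatives were another pseudocount, filter, scaling, variance model, a replicate block and leaving out each library, and, chosen after seeing the data, sums of close copies. Sequences came from RefSeq and intervals from GENCODE M21.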

Additional observations from a re-analysis of the deposited data

How the results depend on the processing

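With 3 libraries per genotype, single libraries move many calls. All-gene calls (944, 200 higher and 744 lower) became 208 (78 and 130) with a 2-fold minimum, 347 (95 and 252) without a filter, 1555 (1358 lower) as TPM, and 411 and 378 lower with median-of-ratios scaling and quantile normalization. Leaving out 1 library gave 296 to 1272 calls, 88 to 239 higher and 202 to 1033 lower. Called retinoid genes, 2 of 9, numbered 0 without a filter, 1 with median-of-ratios scaling or no trend, and 0 to 4 without 1 library. In the pathway lists, 5 lower calls became 2 without a filter, 8 as TPM and 2 to 8 without 1 library, and the 2 higher calls 1 to 2. Replicate numbers did not pair the libraries (r of same-numbered deviations −0.123, −0.0988 and 0.00267), and the replicate block gave 578 calls (422 lower), 1 of the 9 genes, 3 lower calls in the lists and −0.53 for Aldh1a7 (limma adjusted p = 0.0567). Aldh1a7 also lost its call without a filter (−0.53), with median-of-ratios scaling (−0.42), quantile normalization (−0.38) and no trend (−0.53), and ran from −0.66 to −0.40 without 1 library. Rdh16 was −1.44 without a filter (limma adjusted p = 0.0614) and −1.74 to −1.16 without 1 library. Rbp4 passed the threshold with a mean of at least 1 FPKM (−0.38), TPM (−0.44), quantile normalization (−0.68) and robust variances (−0.38), and ran from −0.44 to −0.31 without 1 library. Cyp26a1 ran from −1.42 to −0.68 without 1 library. Signs turned for Dhrs3 (−0.03 as TPM, −0.05 without WT replicate 2, −0.08 without KI replicate 2, up to 0.10 without another), Trim24 (−0.06 without KI replicate 3, up to 0.35 without another), Xlr3a (−0.06 without WT replicate 1, up to 0.95 without another) and the summed Cyp26 level (−0.41 FPKM without KI replicate 2, up to 3.94 without another). Why these values moved was not tested; a fit without a library has fewer samples. The directions of Cyp26a1, Cyp26b1, Rbp4, Aldh1a1, Aldh1a7, Lrat, Rdh11 and Rdh16 were the same in all 15 alternatives. The filters, the variance models and the replicate block leave the fold change as it was, so directions could turn only under the others. Fits with 2 libraries in a genotype assume the spread of the other. Read sharing between copies was examined only through sums.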
